A study of Homo sapiens with 5 samples.

Results

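Processed pseudogenes are DNA copies of messenger RNAs that were inserted elsewhere in the genome, and 132 of them carried enough nanopore reads to be followed through a dilution series of 2 lung cancer cell lines. The set holds every gene that GENCODE v44 types as processed_pseudogene or transcribed_processed_pseudogene with at least 10 reads, summed over its transcripts, in at least 2 of the 5 libraries, leaving out names that start with MT. The annotation lists 10658 genes of these types (10146 processed and 512 transcribed processed). Of them 10644 were in the tables, 1671 had at least 1 read, 136 passed the read minimum and 4 of those had MT names. The remaining 132 pseudogenes comprise 79 processed and 53 transcribed processed pseudogenes, among 13492 genes of all types with the same minimum. For 101 of them the name gives a protein-coding parent (RPS27AP16 from RPS27A), and the 101 names lead to 74 different parents. The other 31 have no parent by name.

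A processed pseudogene arises when a messenger RNA is reverse transcribed by the machinery of LINE-1 elements and the copy is pasted back into a chromosome. Such a copy lacks the introns and the promoter of its parent, often ends in a poly(A) tract and gathers mutations that interrupt the reading frame. Abundant housekeeping messages, above all those of ribosomal proteins, have left the most copies. Some copies are transcribed, from a promoter nearby or inside a host gene, and some have been described as regulators of their parent. Because a copy can be almost identical to its parent, reads of both are hard to tell apart.

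Poly(A)-selected RNA of lung adenocarcinoma lines from ATCC, NCI-H1975 and HCC827, was amplified as cDNA and read by nanopore in 5 libraries. The lines are established ones, with no drug treatment or genetic change named in the labels, and each was grown on its own to near confluency. NCI-H1975 RNA carried the synthetic spike-in transcripts called sequins as mix A and HCC827 RNA carried sequins mix B. In the mixtures HCC827 supplied 0, 25, 50, 75 or 100% of the RNA mass. Library names give the NCI-H1975 part and then the HCC827 part, so that 100:0 is pure NCI-H1975 and 0:100 pure HCC827. Each ratio had 1 library, all drawn from a single RNA preparation per line, so the scatter about a trend covers library making and counting but not cultures. Levels are per mass of RNA, and the amount of RNA per cell was not measured.

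How close the copies are to their parents is shown first, because it bears on every value below. For each pair the sequence is the 120-base gap-free stretch with the most differences within the coding part of the parent, read 5′ to 3′ along the transcripts of GENCODE v44 (GRCh38), and capitals mark the bases that differ. RPS27AP16 (chr16:61055514-61055633, minus strand) and FTH1P10 (chr5:17353908-17354027, minus strand) are the pseudogenes with most reads. RPS27A encodes ubiquitin fused to a protein of the small ribosomal subunit, and FTH1 encodes the heavy chain of ferritin, the iron store of the cell.
RPS27AP16: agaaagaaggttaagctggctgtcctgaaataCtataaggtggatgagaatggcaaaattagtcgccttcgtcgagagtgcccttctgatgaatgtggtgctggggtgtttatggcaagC
RPS27A: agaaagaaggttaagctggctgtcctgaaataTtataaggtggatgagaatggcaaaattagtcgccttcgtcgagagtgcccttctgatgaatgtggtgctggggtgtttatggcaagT
FTH1P10: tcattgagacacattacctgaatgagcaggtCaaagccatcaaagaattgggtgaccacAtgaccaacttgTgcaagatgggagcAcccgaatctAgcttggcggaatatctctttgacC
FTH1: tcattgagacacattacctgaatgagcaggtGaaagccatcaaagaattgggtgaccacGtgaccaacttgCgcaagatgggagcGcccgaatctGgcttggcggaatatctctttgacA
The most divergent stretch of RPS27AP16 still matched RPS27A at 98.3% of its bases, with 2 differences, and that of FTH1P10 had 6 differences from FTH1.

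TMSB4XP4 (chr9:128342236-128342355, plus strand) and NAMPTP1 (chr10:36523929-36524048, minus strand) are shown because they fell along the series with their parents. TMSB4X encodes thymosin beta 4, which binds actin monomers, and NAMPT encodes an enzyme that recycles nicotinamide into NAD.
TMSB4XP4: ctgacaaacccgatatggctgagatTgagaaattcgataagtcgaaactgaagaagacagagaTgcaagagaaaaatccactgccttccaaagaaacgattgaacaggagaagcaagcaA
TMSB4X: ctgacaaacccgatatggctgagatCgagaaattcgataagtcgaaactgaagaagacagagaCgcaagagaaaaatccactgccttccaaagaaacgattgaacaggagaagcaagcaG
NAMPTP1: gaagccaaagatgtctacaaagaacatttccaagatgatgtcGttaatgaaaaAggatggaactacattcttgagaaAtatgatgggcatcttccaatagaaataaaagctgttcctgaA
NAMPT: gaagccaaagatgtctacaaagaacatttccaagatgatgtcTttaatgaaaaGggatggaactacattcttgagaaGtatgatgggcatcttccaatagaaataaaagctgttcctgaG
RPL10P3 (chr9:117180771-117180890, minus strand) and RPL21P75 (chr7:20003042-20003161, plus strand) are copies of large-subunit ribosomal proteins that rose with them.
RPL10P3: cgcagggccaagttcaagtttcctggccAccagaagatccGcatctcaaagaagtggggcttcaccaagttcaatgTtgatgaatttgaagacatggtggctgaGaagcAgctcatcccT
RPL10: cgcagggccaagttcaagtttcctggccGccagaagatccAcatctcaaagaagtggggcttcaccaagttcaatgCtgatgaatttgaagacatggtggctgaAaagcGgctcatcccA
RPL21P75: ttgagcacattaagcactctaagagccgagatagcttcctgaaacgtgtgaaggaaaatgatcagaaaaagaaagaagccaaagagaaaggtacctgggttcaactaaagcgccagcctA
RPL21: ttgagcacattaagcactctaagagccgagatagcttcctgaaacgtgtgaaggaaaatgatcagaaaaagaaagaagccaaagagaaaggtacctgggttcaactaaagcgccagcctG
In RPL21P75 the most divergent 120 bases held 1 difference from RPL21.

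RPL12P4 (chr20:55074964-55075083, plus strand) is shown because its slope along the series differed from that of its parent RPL12, another large-subunit protein gene.
RPL12P4: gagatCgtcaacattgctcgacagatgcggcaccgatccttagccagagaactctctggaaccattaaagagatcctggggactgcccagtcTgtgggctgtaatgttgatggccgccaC
RPL12: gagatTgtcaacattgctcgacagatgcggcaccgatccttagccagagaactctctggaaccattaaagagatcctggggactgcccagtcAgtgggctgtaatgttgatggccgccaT
The stretch of RPL12P4 held 3 differences.

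Over whole transcripts, 98 of the 101 pseudogenes with a named parent aligned to a transcript of it, at a median identity of 96.95% (range 74.8 to 100). For 68 of them at least 90% of the pseudogene transcript lay in the alignment, and for 17 under 50%. RPL21P16, RPL36AP37 and ITGB1P1 matched their parents at every base of their transcript; these 3 were named after their values were seen. For 45 pseudogenes the alignment spanned the whole coding sequence of the parent. The reading frame ran through to the stop codon in 20 of these, among them TMSB4XP4, HMGB1P5, EIF2S2P4, PTMAP5, RPL21P75 and EEF1A1P5. An unbroken frame from a start codon to a final stop was not found in the other 25, of which 3 had no start codon. They include RPL37P6, with no stop codon in the frame, and RPLP0P2, with its first stop at codon 319 where its parent reads to codon 318. RPS27AP16 met its first stop at codon 103, where RPS27A reads to codon 157, FTH1P10 at codon 17 of 184, and RPL5P4, from the large-subunit protein gene RPL5, at codon 23 of 298. An intact frame is a property of the sequence, and translation was not measured.

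The main transcript had a single exon in 99 pseudogenes and several in 33. Its length ran from 84 to 9714 bases, with a median of 1104.5. On their own strand, 20 pseudogenes overlapped an exon of another gene, 31 overlapped the span of another gene but no exon, and 81 overlapped no gene. Among the 31, which gene lay within the other was not told apart. In the share of 31-base words found in no other annotated gene, the pseudogenes had a median of 54.2%. RPL21P16, RPL3P4, RPL36AP37, RPL12P16 and ITGB1P1, again named after their values were seen, had no such word at all. Under 50% of the words were unique in 63 pseudogenes, which held 46.5% of the pseudogene reads. Reads shared by near-identical copies are divided by the authors' counting, so the values of these genes are uncertain.

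The libraries had between 2932250 and 4058751 assigned reads. The 9 epithelial markers checked were all detected, with a summed level of 5620 CPM (reads scaled to a common library size) in 100:0 and 16200 in 0:100. Of 9 markers of blood, endothelium and fibroblasts, PTPRC, CD3E and DCN were at 0 in every library, and the summed level ran from 189 CPM in 100:0 to 7.44 in 0:100, most of it COL1A1 (157 and 7.06 CPM). The mean transcript length per assigned read fell along the series, from 2579 to 2180 bases. The part of these differences in the results below was not tested.

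Pseudogene reads were a small part of each library. The 132 genes held 156557 reads, 0.919% of all assigned reads. The share was 0.865% in 100:0 (95% Wilson interval 0.854 to 0.876), 0.921% in 75:25 (0.912 to 0.93), 0.956% in 50:50 (0.946 to 0.965), 0.912% in 25:75 (0.902 to 0.923) and 0.927% in 0:100 (0.916 to 0.938). The lowest share was in the pure NCI-H1975 library and the highest in the even mixture, so the shares followed no order; the intervals cover counting error only. The 6 members with at least 10000 reads held 79.4% of the pseudogene reads, and the other 126 together stayed between 0.186 and 0.191% of assigned reads in every library. The copies of ribosomal protein genes alone took 0.381% of reads in 100:0, 0.442% in 75:25, 0.483% in 50:50, 0.484% in 25:75 and 0.528% in 0:100. This share thus rose from end to end, with 50:50 and 25:75 nearly equal. Of the 79054 reads of these copies, 42149 were on RPS27AP16, 14484 on RPL37P6 and 12574 on RPL10P3.

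Most members were thinly covered. The median was 107.5 reads over the 5 libraries (range 29 to 42149), and 62 members had under 100. The read minimum was met in all 5 libraries by 80 members, in 4 by 10, in 3 by 18 and in just 2 by 24. These 24 had 29 to 54 reads in total, while the 18 genes just outside, which met the minimum in 1 library, had 18 to 44. By library, 106, 117, 116, 103 and 100 members had at least 10 reads from 100:0 to 0:100, and a single member, RPL7P10 in 100:0, had none there. No pseudogene is left out of the fits, since the read minimum of the fits is the one that chose them.

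RPS27AP16 was the most read pseudogene, at 1770, 2240, 2530, 2850 and 3150 CPM from 100:0 to 0:100 (CPM scaled by TMM, a factor per library that balances the bulk of genes). Its level rose at every step of the series. The slope, the fitted log2 change from pure NCI-H1975 to pure HCC827, was 0.80 with an SE of 0.10 (adjusted p = 4.06e-05, quasi-likelihood test of edgeR). RPS27A itself was listed at 356, 419, 472, 668 and 666 CPM, with a slope of 1.00 ± 0.13. Of the reads of the pair, 83.1% stood on the pseudogene, and between 81 and 84.3% in each library. Per kilobase of transcript the share on the pseudogene was 89.6%. Only 24.6% of its 31-base words were unique, against a transcript identity of 98.7%.

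FTH1P10 followed with 1680, 1640, 1660, 1420 and 1470 CPM. The 3 libraries richest in NCI-H1975 were the highest, and the slope of -0.24 ± 0.10 did not pass the threshold (edgeR adjusted p = 0.0815). With library totals in place of TMM the slope was -0.64 (adjusted p = 0.000221), and limma-voom (adjusted p = 0.0419) and a minimum of 10 reads in every library (adjusted p = 0.0333) also called it. FTH1 ran at 3050, 2810, 2840, 3370 and 3060 CPM, and 34.6% of the reads of the pair lay on FTH1P10, or 39.0% per kilobase.

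ENSG00000237550 (chr15:82372196-82372916, minus strand), a gene without a symbol, had 534, 813, 1030, 1300 and 1390 CPM. It rose at each step, with a slope of 1.37 ± 0.15 (edgeR adjusted p = 1.48e-05). Its closest protein-coding match was RPL9, a large-subunit ribosomal protein gene, at 99.8% identity over 65.3% of its transcript, and 7.3% of its 31-base words were unique.

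RPL37P6 and RPL10P3 copy the large-subunit proteins RPL37 and RPL10. RPL37P6 (chr8:56588385-56588787, plus strand) had 642, 750, 878, 981 and 1060 CPM, rising at each step, with a slope of 0.73 ± 0.11 (edgeR adjusted p = 0.000157). RPL10P3 had 484, 674, 824, 694 and 1050 CPM and dipped in 25:75, with a slope of 0.92 ± 0.17 (edgeR adjusted p = 0.000944). RPL37P6 held 23.1% and RPL10P3 22.2% of the reads of their pairs. Both are more distinct than RPS27AP16, with 79.1% and 70.5% of their 31-base words unique.

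TMSB4XP4 went the other way, with 734, 745, 694, 546 and 416 CPM. Its level was flat over the first 2 libraries and lower at each step after them, and the slope was -0.83 ± 0.15 (edgeR adjusted p = 0.000731). TMSB4X ran at 1990, 1880, 1760, 1570 and 1250 CPM and fell too (slope -0.63 ± 0.11). The pseudogene held between 24.9 and 28.4% of the reads of the pair in each library.

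**Figure D1:**
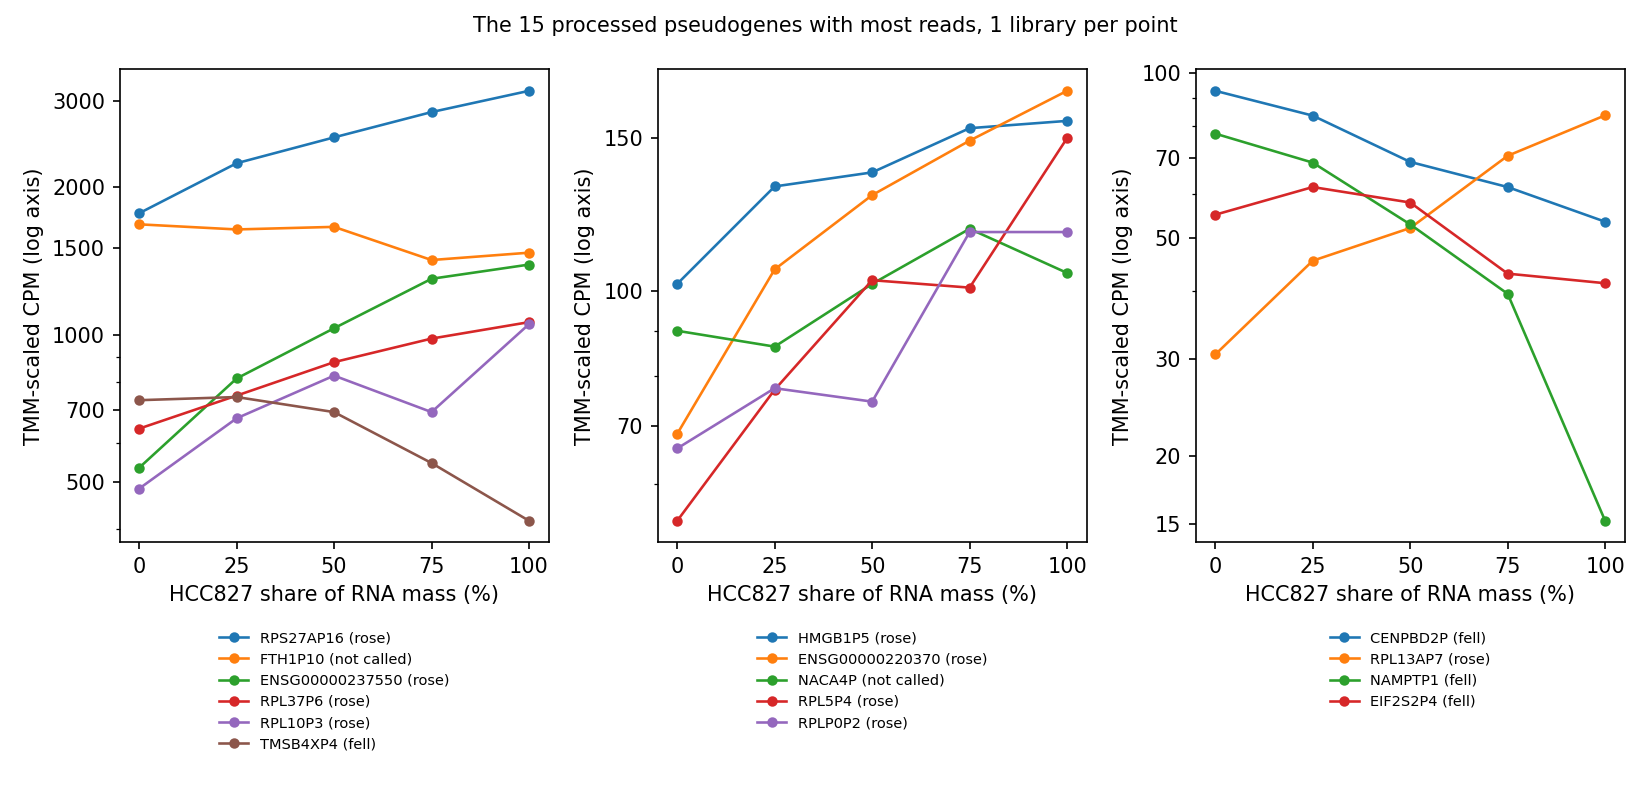
Level of the 15 processed pseudogenes with most reads (TMM-scaled CPM, log axis) against the HCC827 share of RNA mass in percent; each point is 1 library and lines join the points of a gene. RPS27AP16 rises from 1770 to 3150 CPM, TMSB4XP4 falls to 416 CPM and NAMPTP1 falls from 77.5 to 15.2 CPM.

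Next in read number came copies of HMGB1, a chromatin protein that bends DNA, and of ribosomal and translation genes. HMGB1P5 (chr3:22381720-22382929, plus strand) had 102, 132, 137, 154 and 157 CPM and rose by a slope of 0.58 ± 0.14 (edgeR adjusted p = 0.00394). The call was lost without the 100:0 library (slope 0.37, adjusted p = 0.0844) and with library totals (0.17, adjusted p = 0.299). It held 33.6% of the reads of its pair with HMGB1, 64.8% per kilobase, with 19.1% of its 31-base words unique.

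ENSG00000220370, whose closest coding match is the large-subunit gene RPL7A (91.2% identity over 80.1% of the transcript), rose from 68.6 through 106, 129 and 149 to 170 CPM (slope 1.2 ± 0.16, edgeR adjusted p = 5.99e-05). RPL5P4, a copy of RPL5 inside an intron of ZMYM4, had 54.5, 77.1, 103, 101 and 150 CPM (slope 1.32 ± 0.16, edgeR adjusted p = 4.09e-05). RPL13AP7 rose at every step, from 30.6 to 83.7 CPM (slope 1.39 ± 0.16, edgeR adjusted p = 3.07e-05). RPLP0P2, of the ribosomal stalk gene RPLP0, had 66, 77.4, 74.7, 117 and 117 CPM (slope 0.91 ± 0.17, edgeR adjusted p = 0.000763). In these 4 the pure HCC827 library was at or tied with the highest level.

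NACA4P, close to NACA, a chaperone subunit at the ribosome exit, had 90.1, 86.4, 102, 118 and 105 CPM and did not pass (slope 0.36 ± 0.15, edgeR adjusted p = 0.0618). EIF2S2P4, from the beta subunit of the initiation factor eIF2, had 55.1, 61.9, 58, 43 and 41.3 CPM. Its slope of -0.53 ± 0.20 passed narrowly (edgeR adjusted p = 0.0405). That call was lost without 75:25, 25:75 or 0:100 (adjusted p between 0.108 and 0.239). CENPBD2P, a transcribed pseudogene that overlaps exons of MZF1-AS1 and ENSG00000286104 (185 reads together), fell at each step from 92.8 to 53.5 CPM (slope -0.81 ± 0.14, edgeR adjusted p = 0.000438).

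Over all 132 pseudogenes, 45 (34.1%) passed the threshold along the series, 28 rising and 17 falling, where 45.8% of all 13492 genes tested passed. The rates of all genes were 23.5% rising and 22.3% falling, with 47.0% passing among protein-coding genes and 34.2% among lncRNA genes. Coverage differed: 20 of 101 members under 300 reads passed, beside 32.0% of all genes with 29 to 299 reads, and 25 of 31 members with at least 300 reads passed, beside 57.2% of all genes that deep. The median slope of the members was 0.36 and that of all genes -0.035. Without any scaling beyond library totals the median of all genes moved to -0.44, and the members then split into 21 rising and 22 falling, with a median of -0.05. Main transcripts of rising members had a median length of 747 bases and those of falling members 2514, beside 1102 for the rest. The mean transcript length per assigned read fell along the series too, and its part in these slopes was not tested.

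In 29 members (22%) the level rose or fell at every step, 18 rising and 11 falling, beside 28.5% of all genes tested (14.9% rising and 13.6% falling). Among the 70 members with at least 100 reads it held for 24, beside 31.6% of all genes with that many.

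By class of the parent gene, the counts below stand beside 23.5% rising and 22.3% falling among all genes, and no difference between classes was tested. Ribosomal protein copies were the largest class with 39 members, of which 16 rose, none fell and 23 did not pass, with a median slope of 0.91 (range -2.1 to 3.16; unadjusted, 19 rose and 2 fell); with library totals 14 rose, 2 fell and the median was 0.51. RPL7P10, at 3.16, had 0 reads in 100:0, so its fitted slope depends on the prior count. Of their 24 parents 23 rose and none fell, with a median slope of 1.12. RNA-binding protein copies numbered 8, of which 2 rose and none fell, also unadjusted (median 0.96). Chromatin protein copies numbered 7, of which 2 rose and none fell (median 0.58; unadjusted, 3 rose and none fell). With library totals 1 RNA-binding and 0 chromatin copies passed.

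Among 32 copies of assorted other genes, 2 rose and 7 fell, with a median slope of -0.44, and their 31 parents comprised 2 that rose and 10 that fell. With library totals 0 of the copies rose and 9 fell. Of 5 translation factor copies, EIF2S2P4 fell and 4 did not pass. Both cytoskeletal copies fell, TMSB4XP4 and TPM3P9. None of the 4 chaperone copies with a parent by name passed, adjusted or unadjusted. Matches of the heat shock chaperone gene HSP90AA1 have no parent by name and are not counted here. Of these, HSP90AA2P fell (slope -1.46) and HSP90AA3P (named after its values were seen) did not pass. The ferritin copy FTH1P10 and the single copy of a glycolysis gene did not pass after adjustment. Of 2 copies of ubiquitin and proteasome genes, UBE2CP5 fell. The 31 members without a parent by name had the same number in each direction, with 6 rising, 6 falling and a median of 0.

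**Figure D2:**
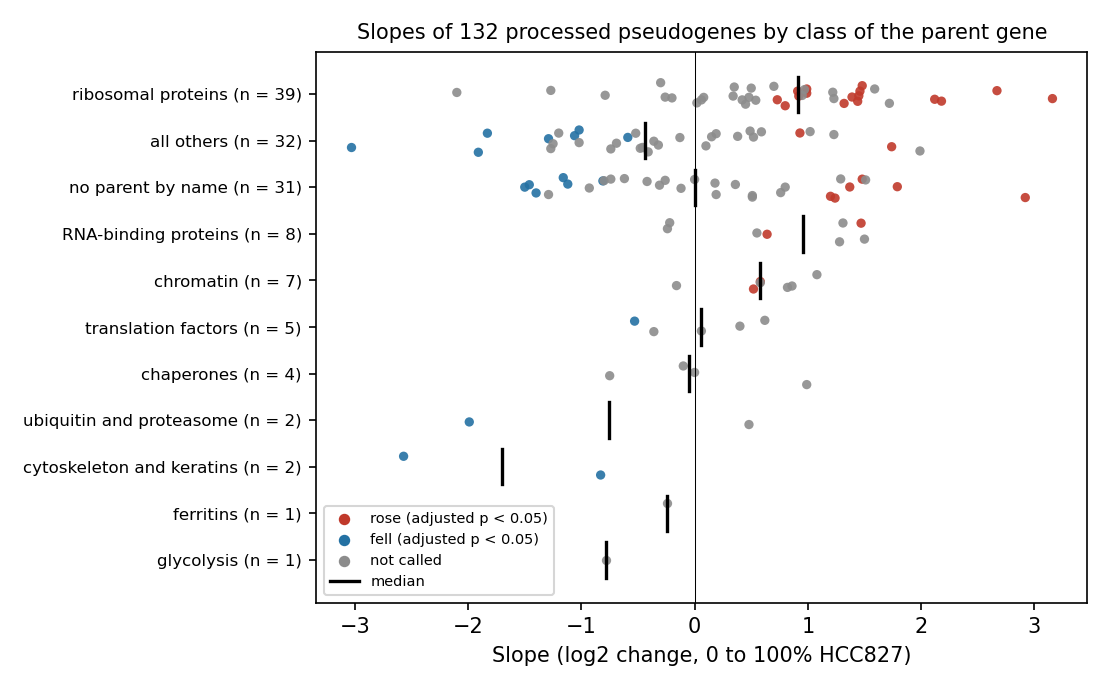
Slope of each of the 132 processed pseudogenes (log2 change from 0 to 100% HCC827) by class of the parent gene; each point is 1 pseudogene, coloured by whether it passed the edgeR test, and black bars are class medians. Ribosomal protein copies have a median of 0.91 with 16 rising and none falling, and the copies of assorted other genes a median of -0.44 with 2 rising and 7 falling.

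Of the 6 steepest ordered rises, 5 are given. ENSG00000255836 (chr12:7438780-7439990, minus strand), inside an intron of CD163L1, had 2, 42, 45, 58 and 68 reads. It was nearly absent from pure NCI-H1975, and the scaled ratio of 0:100 to 100:0 was 42.9 (exact 95% counting interval 11.4 to 362). The slope was 2.92 ± 0.55 (edgeR adjusted p = 0.000858). Its transcript matched MPHOSPH8, a reader of methylated histone H3 in heterochromatin, at 96.9% identity along its whole length.

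RPL13P5 (chr12:6873389-6884741, plus strand) came next with 18, 107, 122, 133 and 178 reads, or 5.3, 24.8, 31.3, 46.5 and 66.2 CPM (slope 2.67 ± 0.35, edgeR adjusted p = 6.85e-05). The step from 100:0 to 75:25 was the widest. SLC44A3-AS1, typed as a transcribed processed pseudogene despite its antisense name, rose from 15.9 through 25.3, 33.1 and 41.6 to 60.2 CPM (slope 1.79 ± 0.20, edgeR adjusted p = 1.85e-05). Whether the counting used strand is not given in the sources used here, so its reads cannot be told apart from those of genes on the other strand.

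RPL18AP3 had 3, 7, 10, 10 and 12 reads and a slope of 2.12 ± 0.69 (edgeR adjusted p = 0.024), with an end-to-end ratio of 5.05 (exact counting interval 1.36 to 27.9). Its call was lost without 100:0, 75:25 or 0:100 (adjusted p between 0.0601 and 0.143). RPL21P75 rose from 11.2 to 30.1 CPM at every step (slope 1.48 ± 0.29, edgeR adjusted p = 0.00116).

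The 6 steepest ordered falls included NAMPTP1 as the best covered, with 263, 296, 206, 113 and 41 reads, or 77.5, 68.6, 52.9, 39.5 and 15.2 CPM. The drop was widest at the last step, to pure HCC827. The slope was -1.91 ± 0.28 (edgeR adjusted p = 0.000128), and NAMPT fell with it from 267 to 75.9 CPM (slope -1.75 ± 0.15). NAMPTP1 kept 22.5 to 24% of the reads of the pair in the first 4 libraries and 16.7% in 0:100. Of its 31-base words 24.8% were unique, at 97.6% identity with NAMPT.

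TPM3P9 (chr19:53431984-53444670, plus strand), from the actin-binding tropomyosin gene TPM3, had 31, 26, 23, 9 and 1 reads (slope -2.57 ± 0.65, edgeR adjusted p = 0.00619). The ratio of 100:0 to 0:100 was 24.6, with an exact counting interval of 4.09 to 1000. Its exons overlap those of ZNF761, which had 423 reads, and only 37.2% of its transcript matched TPM3. Without the 0:100 library its slope was -1.72 and its adjusted p 0.0598.

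PLEKHA8P1, from a lipid-transfer protein gene, had 29, 28, 21, 11 and 5 reads (slope -1.83 ± 0.51, edgeR adjusted p = 0.00999). The zinc finger copies ZNF321P (33, 36, 26, 13 and 9 reads, slope -1.50 ± 0.43) and ZNF37BP (34, 36, 27, 12 and 11 reads, slope -1.40 ± 0.43) fell with adjusted p of 0.0127 and 0.0171 in the edgeR fit. ZNF321P overlaps exons of ZNF816-ZNF321P on its strand (24 reads), and 40.2% of its transcript is identical to a transcript of that gene. TTC3P1, from a ubiquitin ligase gene, had 35, 27, 21, 14 and 11 reads (slope -1.29 ± 0.45, edgeR adjusted p = 0.0329). In these 4 the highest CPM was in pure NCI-H1975 and the lowest in pure HCC827. All 4 calls were lost without 100:0 (adjusted p between 0.0522 and 0.441) and all 4 without 0:100 (0.0652 to 0.0907). Those of ZNF37BP and TTC3P1 were also lost without 25:75 (0.0524 and 0.0619).

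Each member was then set against its own parent. Across the 98 members with a tested parent, the slopes of member and parent had a Pearson r of 0.675 and a Spearman rho of 0.717, as a description over genes that share libraries and, within a family, the parent. Among the 32 of these members that passed along the series, the parent passed as well for 25, in the same direction for 24 of them. For 7 the parent did not pass, and 43 members did not pass while their parent did. The member had the lower slope in 64 pairs and the higher in 33.

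**Figure D3:**
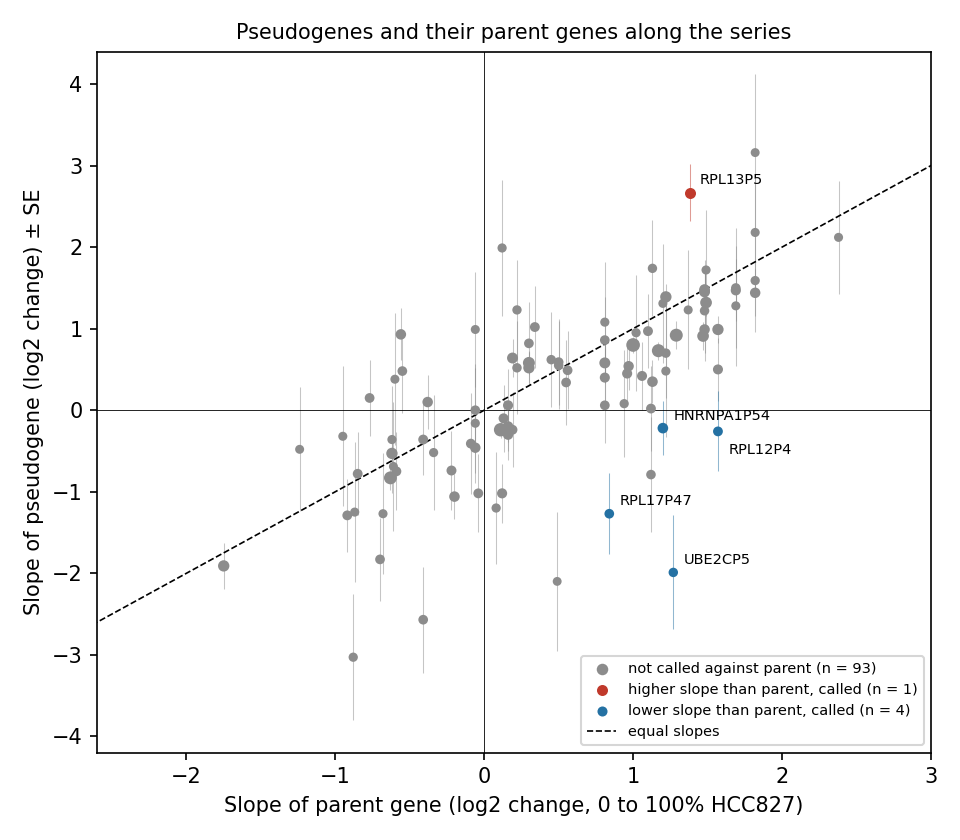
Slope of each pseudogene with its SE against the slope of its parent gene (log2 change from 0 to 100% HCC827), for 98 pairs; the dashed line marks equal slopes and colours mark the pairs whose difference passed the edgeR diffSpliceDGE test. RPL13P5 lies above the line, and HNRNPA1P54, RPL12P4, RPL17P47 and UBE2CP5 lie below it.

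How far the slopes of member and parent lay apart was set beside sequence uniqueness. Where under 25% of the 31-base words were unique (34 pairs), the median absolute difference of the slopes was 0.33 and the median identity 99.3%. From 25 to 50% (19 pairs) the difference was 0.39, from 50 to 75% (23 pairs) 0.43, and above 75% (22 pairs) 0.57, at a median identity of 93.0%. The median differences thus widened as the copies became more distinct. The Pearson r of member and parent slopes was 0.701, 0.813, 0.775 and 0.348 over the same bins, without such an order. Read numbers differed as well, with medians of 146, 89, 108 and 67 reads per member from the least to the most unique bin. Their part in the widening was not tested.

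The difference itself was tested with diffSpliceDGE of edgeR, over 26356 rows. It sets the slope of the member against that of its family. The family holds the transcripts of the parent that met the read minimum, the member itself and other members of that parent. The relative slopes of the test are in natural-log units, and each family includes the member. Both make them smaller in size than differences of the log2 slopes. MSL3P1 (named after its values were seen), with 43.2% of the reads of its pair, had a relative slope of 0.05, where the log2 slopes differed by 1.49. Of 98 members 5 passed, beside 0.205% of all rows, and 18 had an unadjusted p under 0.05. A member that did not pass is not shown to follow its parent. One passed upward, RPL13P5, and 4 downward. Without the 100:0 library none passed, though 13 had an unadjusted p under 0.05.

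RPL13P5 took 0.224% of the reads of its pair with RPL13, a large-subunit gene, in 100:0, then 0.808, 0.812, 0.91 and 1.09%. The pure NCI-H1975 library was low and the other 4 close together. Whether mixing by mass alone gives this shape was not tested. Its relative slope was 0.88 (edgeR diffSpliceDGE, adjusted p = 0.00476). The adjusted p was 0.277 with RPL13 summed to 1 row, 1 without 100:0 and 0.093 without 0:100. Exons of RPL13P5 overlap those of DSTNP2 and LRRC23, which had 669 reads together, and 46.6% of its transcript matched RPL13, at 77.8% identity.

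UBE2C encodes the ubiquitin-conjugating enzyme that works with the anaphase-promoting complex in mitosis, and UBE2CP5 matches it at 84.4% identity over 61.3% of its transcript. UBE2CP5 had 18, 21, 19, 6 and 2 reads, or 5.3, 4.86, 4.88, 2.1 and 0.744 CPM, while UBE2C had 52.1, 65.3, 82.9, 120 and 115 CPM. The pair thus ran in opposite directions, and this was the single pair in which both genes passed with opposite signs (slopes -1.99 ± 0.70 and 1.27 ± 0.17). The pseudogene share of the pair fell from 9.23 through 6.93, 5.56 and 1.72 to 0.641%. The relative slope was -2.13 in natural-log units (edgeR diffSpliceDGE, adjusted p = 0.0196), where the log2 slopes differed by -3.26. Leaving out any library but 50:50 raised that adjusted p to between 0.099 and 0.318, and the own slope of UBE2CP5 lost its call without 75:25, 25:75 or 0:100. Of its 31-base words 83.4% are unique, and it overlaps no exon of another gene on its strand.

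HNRNPA1P54 (chr1:179447602-179457315, minus strand), annotated as 9714 bases of which 14.6% match HNRNPA1, an RNA-binding splicing regulator, had 22.7, 19.2, 15.1, 12.9 and 22.7 CPM. It was equal in both pure libraries and lower between them, while HNRNPA1 rose from 389 to 933 CPM. The share of the pair fell from 5.51% to 1.59% in 25:75 and was 2.37% in 0:100. The relative slope was -0.97 (edgeR diffSpliceDGE, adjusted p = 0.0194), and the adjusted p was 1 without 100:0, 0.0629 without 75:25 and 0.308 without 25:75.

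RPL17P47 (chr19:12141806-12143322, minus strand) had levels from 7.36 through 6.02, 4.88 and 4.54 to 2.6 CPM, lower at each step, while RPL17 rose from 715 to 1250 CPM. Its own slope of -1.27 ± 0.50 did not pass (edgeR adjusted p = 0.052). Its relative slope was -1.45 (edgeR diffSpliceDGE, adjusted p = 0.0265), and it lost the call when 100:0, 75:25, 25:75 or 0:100 was left out (adjusted p 0.0882 to 0.751). This gene overlaps exons of ZNF625, and 28.6% of its transcript is identical to a ZNF625 transcript. Reads of such shared sequence cannot be told apart.

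RPL12P4 had 24, 30, 21, 11 and 20 reads, or 7.07, 6.95, 5.39, 3.84 and 7.44 CPM, with no order, while RPL12 rose from 724 to 2040 CPM. The relative slope was -1.25 (edgeR diffSpliceDGE, adjusted p = 0.0406). Each of 100:0, 75:25, 50:50 and 25:75 left out in turn raised the adjusted p to between 0.0502 and 1. Among its 31-base words 12.6% are unique, the lowest of these 5.

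**Figure D4:**
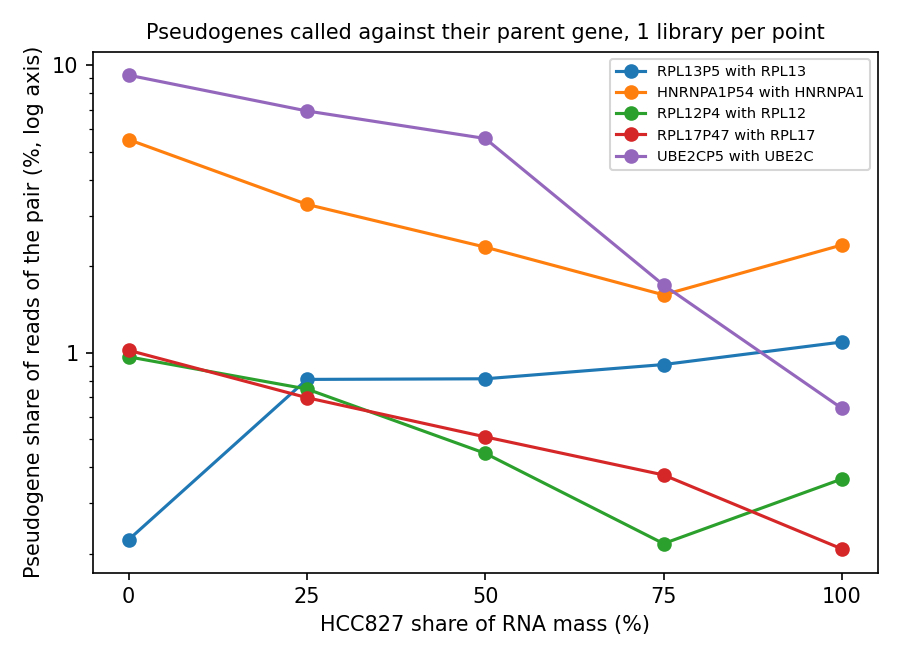
Share of the reads of a pseudogene and its parent that stood on the pseudogene (percent, log axis) against the HCC827 share of RNA mass in percent, for the 5 pairs that passed the test; each point is 1 library. UBE2CP5 falls from 9.23 to 0.641%, and RPL13P5 rises from 0.224 to 1.09%.

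Members held little of the reads of most pairs. The median share over the 98 pairs was 1.32%; it was under 1% in 39 pairs, at least 10% in 18 and at least 20% in 13. In RPS27AP16 and C4orf46P2 (55.4%, named after its value was seen) the pseudogene held the majority. C4orf46P2 had 128 reads and overlaps exons of PGK1 and ATP7A on its strand, which had 6373 reads together, and 40.7% of its transcript matched C4orf46, at 82.3% identity. Per kilobase the pseudogene held the majority in 7 pairs. Besides RPS27AP16 and C4orf46P2 (63.9%) these were RPL37P6 with 80.0%, GRAMD4P3 with 71.6%, HMGB1P5 with 64.8%, PLEKHA8P1 with 60.1% and MSL3P1 with 50.2%, of which GRAMD4P3 and MSL3P1 were named after their values were seen. RPL10P3 held 47.6% per kilobase. These shares rest on the lengths annotated for the transcripts of the parents; RPL37 had a mean of 5364 bases over its reads, against 403 for RPL37P6. GRAMD4P3 matched GRAMD4 over 25.6% of its transcript, at 74.8% identity. Share and uniqueness had a Spearman rho of 0.192 over the 98 pairs, given as a description.

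**Figure D5:**
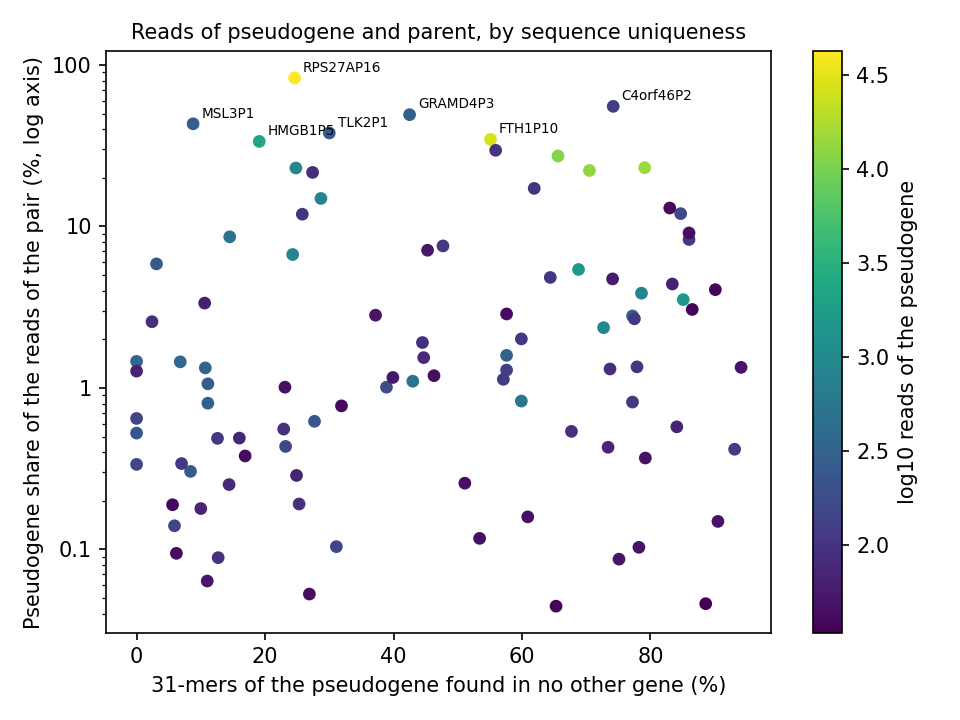
Share of the reads of a pseudogene and its parent on the pseudogene (percent, log axis) against the percent of 31-base words of the pseudogene found in no other gene, for 98 pairs; colour gives log10 of the reads on the pseudogene. RPS27AP16, at 83.1% of its pair, has 24.6% of its words unique, and C4orf46P2, at 55.4%, has 74.2%.

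The RPL21 family shows how reads spread over near-identical copies. The annotation holds 131 pseudogenes named from RPL21, of which 41 had a read, 90 had none and 5 were members. RPL21P16 is identical to RPL21 over its transcript and had 37, 79, 79, 74 and 91 reads, beside 38, 60, 100, 79 and 81 on RPL21P75, which differs from RPL21 at 1 base. Neither copy exceeded 1.75% of the reads of its pair in any library. Their slopes of 1.45 ± 0.25 and 1.48 ± 0.29 lay within their errors of the 1.48 ± 0.12 of RPL21. The 5 members together held 5.36% of the reads of the members and parent. RPL21P16 was named here after its values were seen.

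Other large families were sparser. Of 61 RPL7 copies 23 had a read and 4 were members, together with 0.464% of the reads of members and parent. Of 46 HMGB1 copies 20 had a read and 3 were members, which held 41.2%. Of 19 RPS27A copies 8 had a read and RPS27AP16 alone was a member. Of 23 FTH1 copies 13 had a read and FTH1P10 alone was a member.

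DUXA and ADAD1, the genes that the names DUXAP9, DUXAP10 and ADAD1P1 give (chosen here after their values were seen), had no read in any library. DUXA is a homeobox gene of the early embryo. DUXAP9 and ADAD1P1 did not align to the gene in their name. Their closest coding matches were NBEA (95.5% identity over 44.9% of the transcript) and RAB3B (99.7% over 16%). DUXAP10 matched DUXA over 25.6% of its transcript, at 87.3%. Of the 31-base words 13.4% were unique in DUXAP10, 5.9% in DUXAP9 and 85.3% in ADAD1P1. DUXAP10 had 54.5, 54, 46.5, 51.4 and 32 CPM and fell (slope -0.59 ± 0.21, edgeR adjusted p = 0.0362), with pure HCC827 the lowest. DUXAP9 had 11.5, 12.5, 13.6, 9.79 and 11.5 CPM and did not pass. ADAD1P1 had between 7.69 and 11.9 CPM and did not pass either.

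Among the 31 members without a parent by name, 30 aligned to some protein-coding transcript and 14 did so at 90% identity or more over at least 90% of their length. HSP90AA2P (chr11:27888838-27891033, minus strand), which matches the heat shock chaperone gene HSP90AA1 at 97.1% along its whole transcript, had 64.8, 44.7, 47.2, 27.6 and 22.3 CPM. It fell with a slope of -1.46 ± 0.22 (edgeR adjusted p = 0.000191), and 55.9% of its 31-base words were unique.

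Of 32 processed pseudogenes often discussed in work on cancer, 5 were members, 16 had no read in any library, 9 had reads but missed the minimum, and 2 have another gene type in the annotation. A count of 0 allows up to 3 reads in a library. Of the 5 members, 4 are given.

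PDIA3P1 (chr1:147172744-147179622, plus strand), from the gene of a protein disulfide isomerase of the endoplasmic reticulum, had 23, 17, 6, 7 and 1 reads and fell (slope -3.03 ± 0.77, edgeR adjusted p = 0.00597). The ratio of 100:0 to 0:100 was 18.2, with an exact counting interval of 2.96 to 750. PDIA3 fell as well, from 334 to 168 CPM (slope -0.88 ± 0.15), and the difference between them did not pass (relative slope -1.49, edgeR diffSpliceDGE adjusted p = 0.545). Exons of PDIA3P1 overlap those of ENSG00000237188, which had 26 reads.

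NPM1P27, PTMAP5 and EEF1A1P5 copy genes of the nucleolar protein nucleophosmin, the acidic nuclear protein prothymosin alpha and an elongation factor. NPM1P27 had 14, 14, 18, 11 and 16 reads (slope 0.55 ± 0.54, edgeR adjusted p = 0.427). PTMAP5 had 21.2, 32.7, 28.5, 33.2 and 36.4 CPM (slope 0.58 ± 0.23, edgeR adjusted p = 0.0574). EEF1A1P5 had 7.66, 8.57, 7.96, 10.1 and 10 CPM (slope 0.40 ± 0.36, edgeR adjusted p = 0.382), at 0.14% of the reads of its pair with EEF1A1. None of these 3 passed, and their parents rose with slopes of 0.50, 0.81 and 0.81.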

How the data were processed

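The authors deposited 1 table per library with estimated counts of reads per transcript (expected counts), with no scaling; 2 values were not whole and were rounded. Per the submitters' processing notes, minimap2 2.24, Salmon 1.9.0 and GRCh38 were used; how they were combined and the annotation release are not given in the sources used here. Transcripts were summed to genes through GENCODE v44 (224076 of 227751 human transcripts matched, with 98.63% of human reads; identifiers listed again, 161 in all, were summed).

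Slopes of log2 level against the mass fraction of HCC827 came from the edgeR 4.0.16 quasi-likelihood test (R 4.3.3) over 13492 genes, with TMM factors, all assigned reads as library size, Benjamini-Hochberg adjustment over all genes and a threshold of 0.05. The SE is the slope over the square root of its F statistic. Members were set against parents with diffSpliceDGE on 1 table of all transcripts. In it each member, summed over its transcripts, joined the family of its parent. The relative slope is the slope of the member less that of its family with the member in it, in natural-log units rather than log2. The parent was the coding gene left when a final P, or P with digits, was removed from the name. Sequence identity came from BLAST 2.17.0 (e-value limit 1e-10) against coding transcripts, and unique words of 31 bases from all annotated transcripts. Limits: intervals cover counting error only, since PCR copies without molecular identifiers count as separate reads. Each p measures the spread of 5 libraries about a line on the log2 scale. Mixing by RNA mass is linear in level and not in log2, so a gene that differs between the lines bends about that line.

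Named were the 15 members with most reads, the 6 steepest ordered slopes each way among those past the threshold, the members past the threshold against the parent (up to 5 each way), the 5 with most reads and no parent by name, and the members on a list of 32 often-discussed names; 2 members that this rule names are not reported here. Members, lists and tests were chosen with earlier results of these data known. Alternatives were other scalings, tests (DESeq2 1.42.0, limma 3.58.1), read minimums, 2 libraries against 2, each library left out, and members with little unique sequence or exon overlap left out.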

Additional observations from a re-analysis of the deposited data

How the results depend on the processing

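Along the series 45 members passed. Over other scalings and tests the number was 30 to 47 of 132 (35.5 to 51% of all genes). With no read minimum it was 44 of 132 (23.8% of the 26426 genes then tested). With 10 reads in every library it was 36 of 80 (48.7% of all genes). Without members that overlap exons it was 35 of 112 (45.8% of all genes in the same fit). It was 15 of 121 with 2 libraries against 2 (17.3% of all genes), 24 of 69 without members under 50% unique words (45.8% of all genes in the same fit), and 31 to 41 with a library left out (30.5 to 44.2% of all genes); no call shared with the reported fit changed sign. The DESeq2 test called 30 (35.5% of all genes), with 21 rising and 9 falling. Against the parent 5 passed with either other scaling and 4 with the parent summed to 1 row or without members under 50% unique words. The number was 3 with no read minimum, 3 with 10 reads in every library, 2 without members that overlap exons, 0 with 2 libraries against 2 (diffSpliceDGE of edgeR, 13 with an unadjusted p under 0.05) and 0 to 4 with a library left out. The cause was not tested, except that leaving members or libraries out leaves fewer to call.

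The share of reads on members, listed from 100:0 to 0:100, was 0.515, 0.51, 0.516, 0.449 and 0.458% without members under 50% unique words. Without the 5 members with most reads it was 0.274, 0.271, 0.26, 0.239 and 0.222%. With reads of protein-coding genes as denominator it was 0.931, 0.997, 1.04, 0.988 and 1.01%. With mitochondrial genome genes out of the denominator it was 0.917, 0.991, 1.04, 0.996 and 1.02%. Over all genes of both types with a read it was 0.909, 0.958, 0.992, 0.946 and 0.959%.

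Of the 34 named slopes, those of 4 changed sign, none of which passes in the reported fit. NACA4P had -0.044 and EEF1A1P5 -0.0016 with library totals. With a library left out, HNRNPA1P54 ran from -1.12 (without 0:100, adjusted p = 0.0318) to 0.18 (without 100:0) and RPL12P4 from -1.13 (without 0:100) to 0.021 (without 25:75). The number of members in order was 31 with library totals (31.7% of all genes) and 24 of 70 with at least 100 reads (31.6% of all genes). Under 2 libraries against 2 most named calls were lost, among them RPS27AP16 (0.58, adjusted p = 0.0642), RPL37P6 (0.55, adjusted p = 0.0591), RPL10P3 (0.59, adjusted p = 0.128) and TMSB4XP4 (-0.62, adjusted p = 0.0563).

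No paired analysis was possible because each ratio has 1 library. Depth limits the members under 100 reads, 62 of 132.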
